A study of Rattus norvegicus with 24 samples.

Results

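Genes for proteoglycans, elastic fibres, matrix-binding proteins and the enzymes that process collagen were followed in rat heart muscle after mitral regurgitation (MR). Members were chosen by gene symbol, under a rule that uses no measured value, though earlier results of these data were known. Of its 47 genes, 41 were listed in every table, among 10129 genes listed in all 4 tables. Fbln2, Col12a1, Col6a1, Col6a3, Hspg2 and Pcolce2 were not analysed here. The tissue was myocardium from the Sprague-Dawley strain, in 24 RNA-seq libraries. The Sham group had the operation without perforation of a mitral leaflet and was sampled at 2 weeks (n = 5). In the MR groups a leaflet was perforated through a left thoracotomy, and tissue was taken after 2 weeks (n = 4), 10 weeks (n = 5), 20 weeks (n = 5) or 40 weeks (n = 5). No drug, transgene or mutation is named in the labels. The labels give neither age, sex, heart chamber nor batch, and do not say that libraries came from separate animals, so p-values measure the spread between these libraries. The Sham libraries used here are all from 2 weeks, so at 10, 20 and 40 weeks the effect of MR, ageing and handling cannot be told apart. The 4 comparisons with Sham share the same Sham libraries.

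Between muscle cells the heart carries a thin scaffold of collagen fibres. Collagen chains are hydroxylated and folded in the endoplasmic reticulum, secreted as procollagen, trimmed by proteinases outside the cell and cross-linked by lysyl oxidases. Small leucine-rich proteoglycans sit on the fibrils and set their spacing, and elastin is laid down on fibrillin microfibrils with the help of fibulins. Some latent TGF-beta binding proteins anchor the growth factor to this scaffold, and SPARC binds collagen as it is deposited. Fibroblasts make most of these proteins, with vascular smooth muscle as another source of the elastic fibre genes. In volume overload such as MR, this scaffold is known to be remodelled.

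Values are read counts per gene divided by 1 factor per library, called normalised read counts below. They are not divided by gene length, so they compare libraries for a gene and not genes with each other. The recovered depth was 7.69 to 12.1 M reads per library. Each MR time was tested against Sham with limma on log2(value + 1), and a gene was called where the Benjamini-Hochberg adjusted p over all tested genes was under 0.05. Log2 fold changes from limma are differences of log2(value + 1), so the added 1 makes them smaller in size where values are low. In heart muscle markers the libraries matched their label: 9 of 10 cardiomyocyte markers were listed, and their summed value was 24037 to 48169 over the 24 libraries. At 40 weeks the deposited scale moved the median of all genes by -0.15 on the log2 scale, so a fold change there should be read against that shift. No member was called at 2, 10 or 20 weeks against Sham. At 40 weeks 18 of 41 members (43.9%) were called, beside 47.3% of the 10094 genes tested, so as a group the members were called about as often as genes in general.

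**Figure D1:**
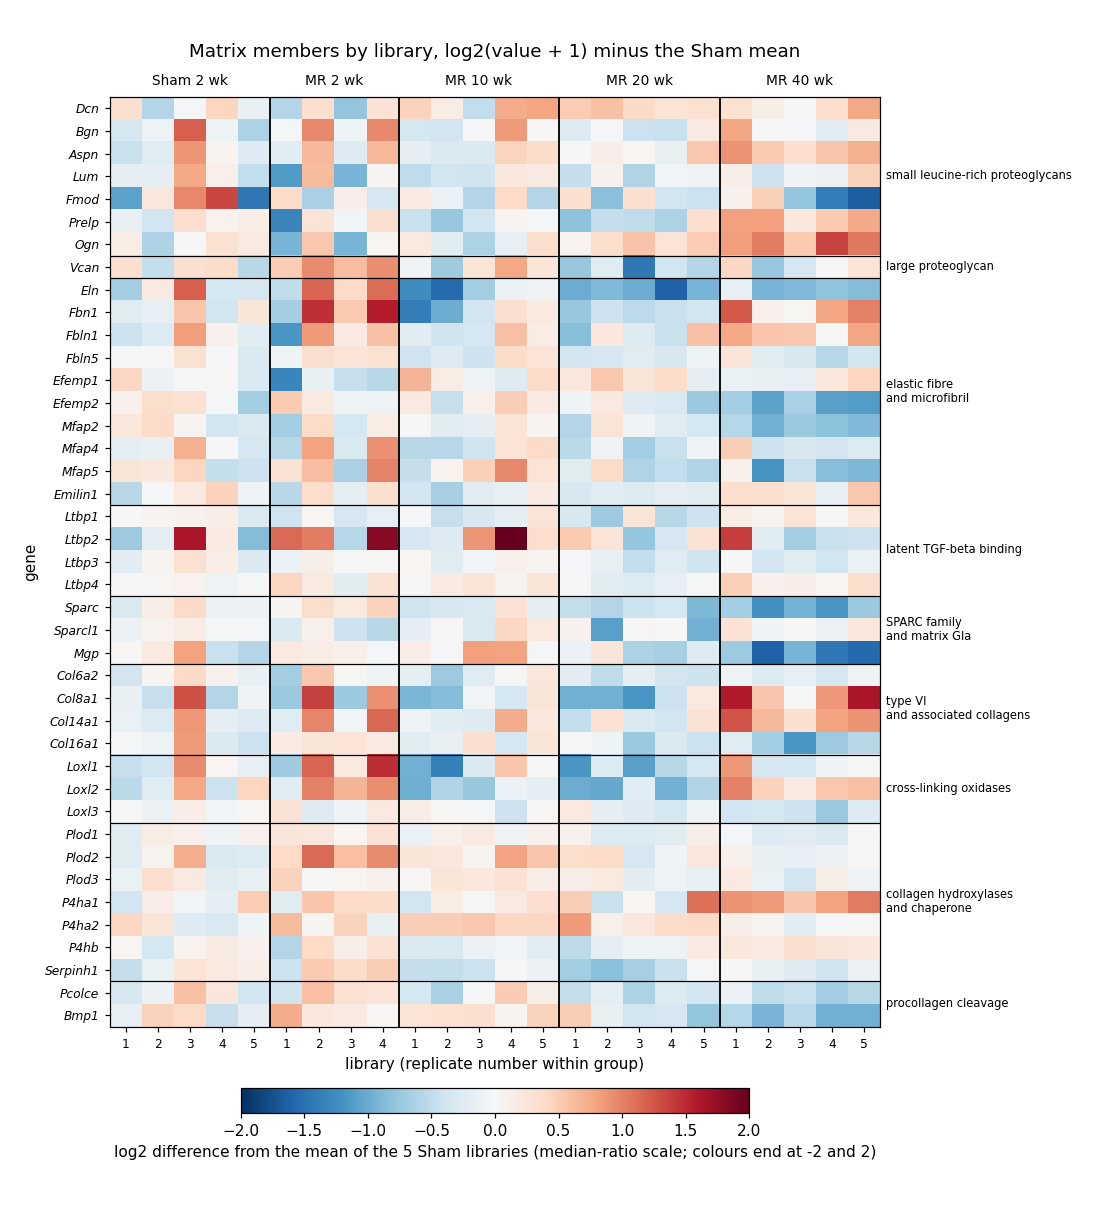
Each row is a member, grouped by role, and each column is 1 of the 24 libraries. Colour gives log2(value + 1) minus the mean of the 5 Sham libraries, on a scale common to all libraries. The Sham replicate 3 column is mostly red (37 of 41 members above the group mean), and at 40 weeks Sparc, Mgp, Efemp2 and Bmp1 are blue while Ogn, Prelp and P4ha1 are red.

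Single libraries moved many members together. In Sham replicate 3, 37 of 41 members lay above the Sham mean, by a median of 0.38 on the log2 scale. In MR replicate 1 at 40 weeks 38 of 41 members lay above the group mean, by a median of 0.24. MR replicate 2 at 2 weeks had 36 members above its group mean (median 0.36), while MR replicate 1 of that group had 11 (median -0.42). At 10 weeks, MR replicate 4 had 32 members above its group mean (median 0.39). The fibrillar collagens, which are not members, moved with them: their median deviation was 0.997 in Sham replicate 3 and -0.73 in MR replicate 1 at 2 weeks. The fibroblast markers did so too, with median deviations of 0.38 in Sham replicate 3, -0.41 and 0.24 in MR replicates 1 and 2 at 2 weeks and 0.34 in MR replicate 1 at 40 weeks. The median within-group SD on the log2 scale was 0.35 for members and 0.26 for all 9988 genes in the joined table. With both Sham replicate 3 and MR replicate 1 left out, a choice made after seeing the data, 19 members were called at 40 weeks, while the genes called fell in number from 4772 to 4052.

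At 40 weeks against Sham, 4 members were higher and 14 lower. Single libraries moved the higher count: it was 8 (with 11 lower) without Sham replicate 3, and 2 without Sham replicate 2, MR replicate 1 or MR replicate 5 (with 11, 16 and 12 lower). The higher members made up 9.76% of the members, beside 16.3% of all tested genes, and the lower ones 34.1%, beside 30.9%. Both proteoglycans that were called were higher. SPARC, matrix Gla protein, elastin with 4 of the 9 other elastic fibre genes, and both genes of procollagen cleavage were lower. The median log2 fold change of the 41 members was -0.22, beside -0.15 for all genes. With a median-ratio scale, which removes most of that shift, 5 members were higher and 10 lower, their median was -0.08, and the median of all genes was -0.01. In 7 members the MR and Sham libraries did not overlap: Ogn was higher in every MR library (2.44% of members, beside 9.06% of all genes), and Sparc, Mgp, Bmp1, Efemp2, Mfap2 and Loxl3 were lower (14.6%, beside 20.2%).

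**Figure D2:**
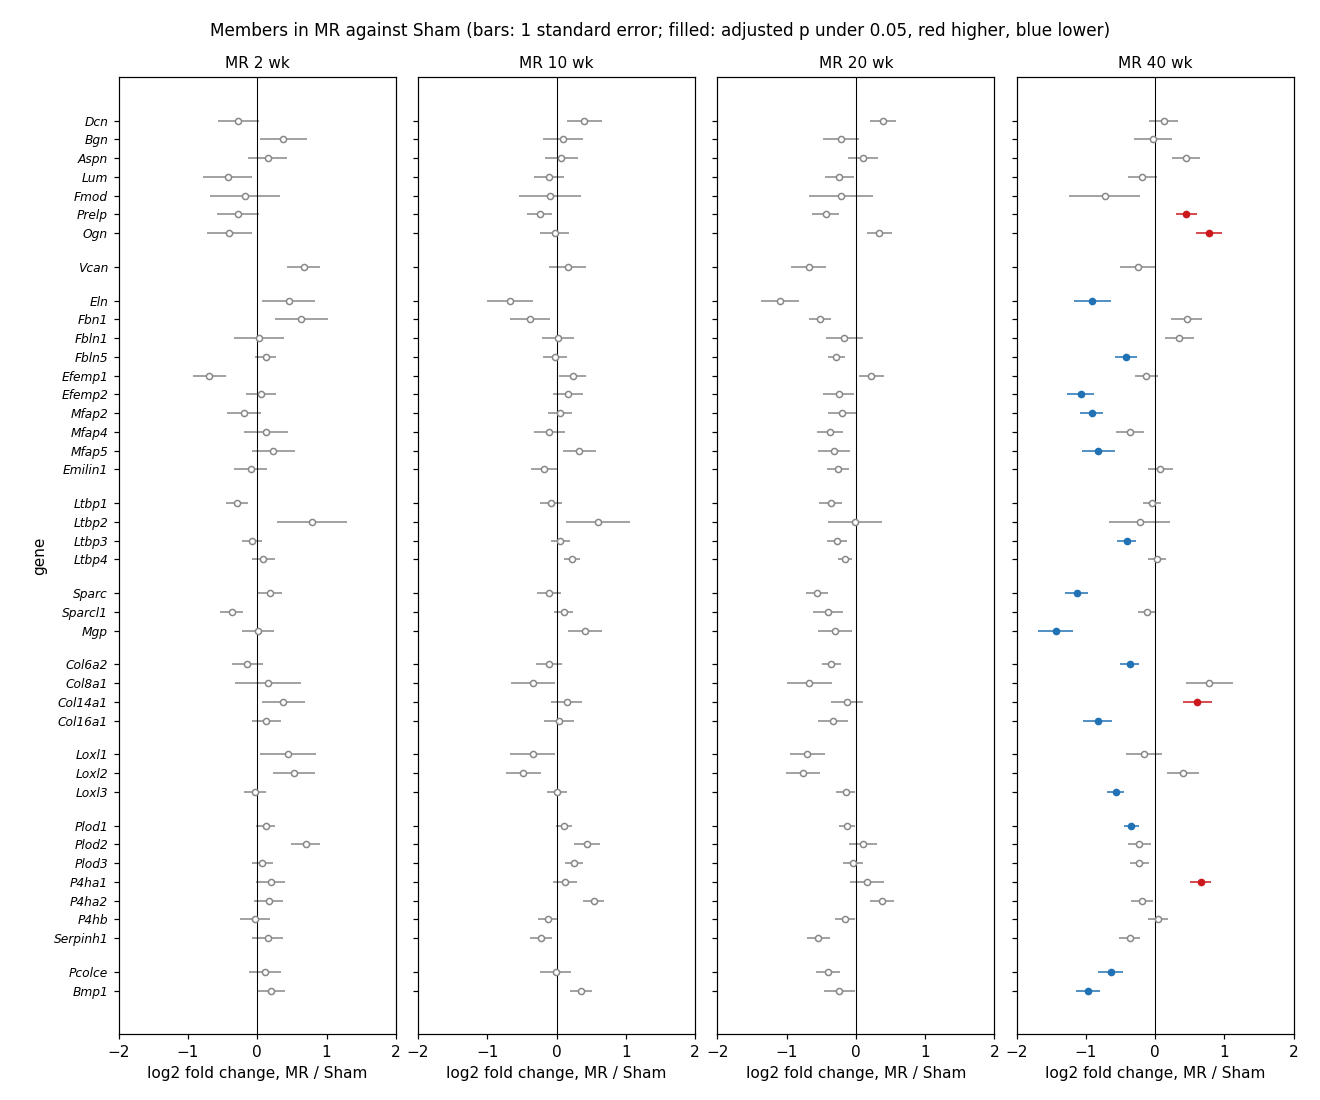
Points give the log2 fold change of each of the 41 members in MR against Sham at 2, 10, 20 and 40 weeks, with bars of 1 standard error. Filled points passed an adjusted p of 0.05. None is filled in the first 3 panels, and in the last 4 are red (higher) and 14 blue (lower).

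Among the small leucine-rich proteoglycans, 2 of 7 were called at 40 weeks, both higher. Ogn (osteoglycin) encodes a collagen-binding proteoglycan core. Its normalised read counts were 47.97, 25.7, 38.3, 54.3 and 46.3 in the Sham libraries. In the MR libraries at 40 weeks they were 67.9, 74.3, 55.02, 94.9 and 70.6, so each MR library exceeded each Sham library (log2 fold change 0.78, SE 0.19, adjusted p = 0.00504). Prelp encodes a proteoglycan that ties basement membranes to collagen. It read 10.8, 8.38, 13.7, 13.04 and 12.7 in Sham. In MR it read 19.4, 18.5, 12.5, 15.1 and 16.4, with MR replicate 3 inside the Sham range (log2 fold change 0.45, SE 0.15, adjusted p = 0.0269). This call was lost in 6 of 21 alternatives, 5 of which left out a single library: Sham replicate 1 or 2, or MR replicate 1, 2 or 5 (highest adjusted p 0.0721). Decorin (Dcn), which binds collagen fibrils, was not called. Its values were 264, 129, 182, 288 and 179 in Sham and 226, 189.7, 184, 225 and 276 in MR, and the groups overlapped (log2 fold change 0.12, SE 0.21, adjusted p = 0.644). The 4 other members of the family gave Bgn -0.04, Aspn 0.45, Lum -0.18 and Fmod -0.73 on the log2 scale, none called. Aspn was called with the median-ratio scale (log2 fold change 0.57, adjusted p = 0.0431). The listed rn6 intervals of Aspn and Ogn span 863 and 861 kb, beside RefSeq gene spans of 24.2 and 20.7 kb in GRCr8. These intervals overlap each other and 5 other listed genes, so how reads were shared among them is uncertain. The large proteoglycan versican (Vcan) read 16.3, 8.16, 14.2, 16.9 and 7.86 in Sham and 14.9, 5.84, 8.62, 10.8 and 11.96 in MR and was not called (log2 fold change -0.25, SE 0.25, adjusted p = 0.421).

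The elastic fibre group had 5 of 10 members called at 40 weeks, all lower. Efemp2 encodes fibulin-4, which is needed to assemble elastic fibres, and lies at rn6 chr1:220854403-220861421, plus strand. Its values were 12.5, 13.97, 12.9, 11.5 and 6.44 in Sham. In MR they were 5.99, 4.16, 6.20, 4.17 and 3.70, all below the lowest Sham library, Sham replicate 5 (log2 fold change -1.07, SE 0.19, adjusted p = 0.000754). This separation held on the deposited scale only. On the median-ratio scale that joins the tables, MR replicates 1 and 3 (6.53 and 6.67) lay above Sham replicate 5 (6.44). Mfap2 encodes a small glycoprotein of fibrillin microfibrils. It read 5.08, 5.28, 3.83, 2.98 and 3.05 in Sham. The MR values were 2.11, 1.34, 1.81, 1.60 and 1.37, with no overlap (log2 fold change -0.91, SE 0.17, adjusted p = 0.000799). These are low values, from 28 to 121 reads per library. Mfap5, its relative in the same microfibrils, read 18.5, 16.7, 18.7, 10.9 and 10.7 in Sham. The MR values were 14.4, 5.12, 9.68, 6.86 and 6.02; MR replicate 1 lay inside the Sham range (log2 fold change -0.82, SE 0.24, adjusted p = 0.0130). Elastin itself (Eln, rn6 chr12:24978478-25021865, plus strand) read 47.7, 80.6, 156, 60.9 and 57.5 in Sham. In MR it read 60.1, 33.2, 36.4, 37.1 and 32.1, and MR replicate 1 lay among the Sham values while Sham replicate 3 was far above the rest (log2 fold change -0.90, SE 0.27, adjusted p = 0.0140). The Eln call was lost when libraries were set to the same summed value (adjusted p = 0.0537) and in the fit of all libraries together (adjusted p = 0.0776). Fbln5, which links elastin to cells, was the fifth (log2 fold change -0.42, SE 0.16, adjusted p = 0.0454), but 14 of 21 alternatives lost that call, among them the median-ratio scale (log2 fold change -0.27, adjusted p = 0.169). Fibrillin-1 (Fbn1), the main protein of microfibrils, read 21.2, 20.7, 33.3, 19.6 and 28.4 in Sham and 52.8, 22.8, 22.6, 37.9 and 40.2 in MR and was not called (log2 fold change 0.45, SE 0.23, adjusted p = 0.113). It was called as higher by edgeR and DESeq2 on the recovered reads (adjusted p = 0.0488 and 0.0235). The others were Fbln1 0.35, Efemp1 -0.13, Mfap4 -0.36 and Emilin1 0.08, not called. The listed interval of Mfap4 spans 1238 kb, beside 3.06 kb in RefSeq, and covers 17 other listed genes, so its value is uncertain.

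Of the 4 genes named for latent TGF-beta binding proteins, Ltbp3 alone was called. It read 45.9, 50.9, 58.1, 59.2 and 40.9 in Sham and 45.7, 33.5, 39.1, 34.8 and 37.2 in MR (log2 fold change -0.41, SE 0.14, adjusted p = 0.0237). The call was lost with the median-ratio scale (adjusted p = 0.128) and with both count tools. Ltbp4 read 274, 256, 253, 257 and 259 in Sham and 328, 240.0, 263, 238 and 269.6 in MR, overlapping groups with no call (log2 fold change 0.03, SE 0.13, adjusted p = 0.845). Ltbp1 gave -0.04 and Ltbp2 -0.22, neither called.

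Matrix Gla protein and SPARC were both lower at 40 weeks. Sparc (rn6 chr10:40742390-40764142, minus strand) encodes a collagen-binding glycoprotein that is made where matrix is being deposited. It read 1095, 1351, 1536, 1249 and 1162 in Sham. In MR at 40 weeks it read 719, 479, 604, 504 and 616, so the highest MR library stayed below the lowest Sham library (log2 fold change -1.13, SE 0.17, adjusted p = 0.000281). The means were 585 ± 96.2 (SD, n = 5) in MR against 1279 ± 173 (SD, n = 5) in Sham. Mgp (rn6 chr4:170856783-170860106, minus strand) encodes an inhibitor of calcification. Its values were 241, 251, 367, 177 and 148 in Sham. In MR they were 124, 63.4, 109, 73.3 and 61.7, and the groups did not overlap (log2 fold change -1.43, SE 0.25, adjusted p = 0.000615). Both calls held in all 21 alternatives, with log2 fold changes of -1.21 to -0.95 for Sparc and -1.58 to -1.25 for Mgp. The SPARC relative Sparcl1 was not called; it read 211, 222, 223, 225 and 210.0 in Sham and 242, 181, 202, 179 and 206 in MR, and its log2 fold change of -0.12 became 0.04 with the median-ratio scale.

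**Figure D3:**
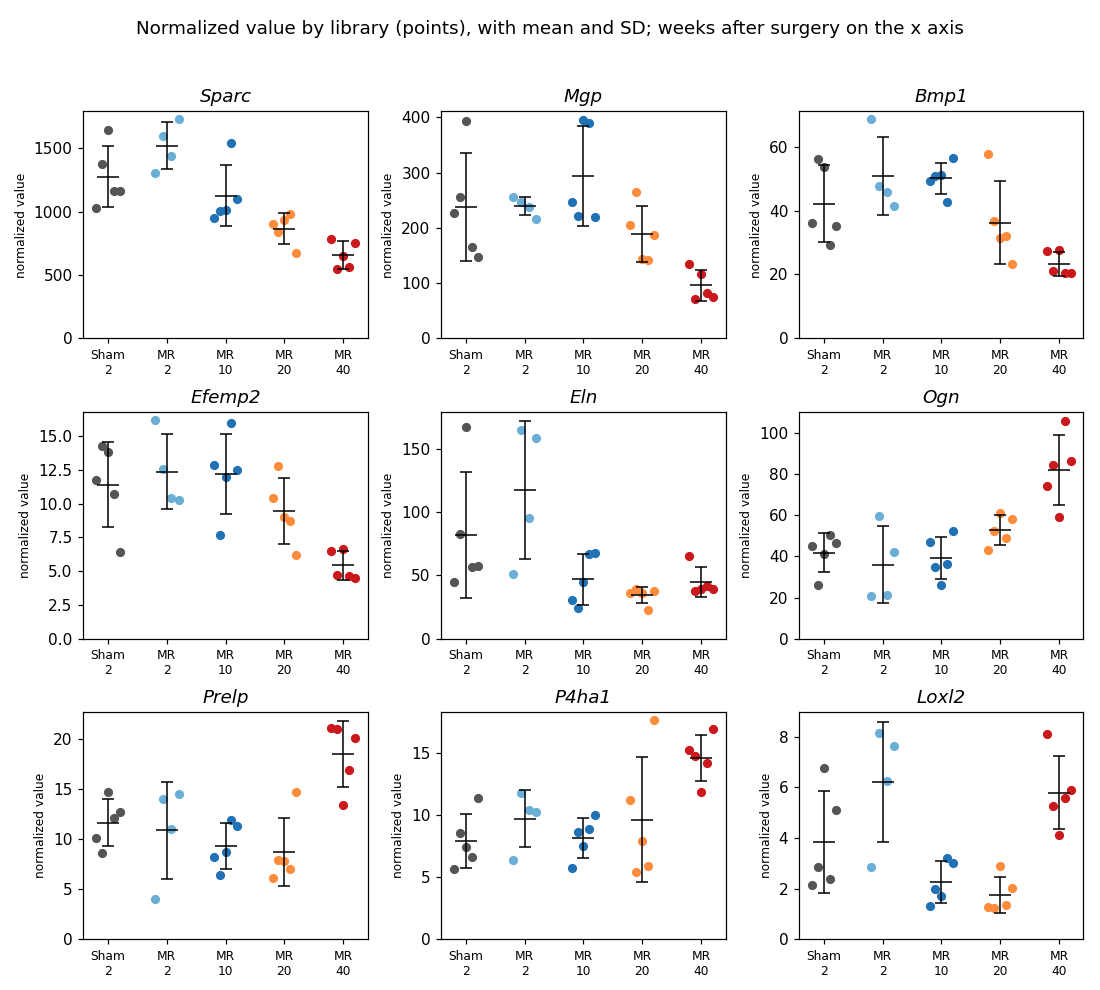
Points give the normalised read count of each library, on the median-ratio scale that joins the tables, with the group mean and SD, for 9 members in Sham at 2 weeks and MR at 2, 10, 20 and 40 weeks. Sparc, Mgp, Bmp1 and Efemp2 are lowest in MR at 40 weeks, Ogn and Prelp highest, and Loxl2 is low at 10 and 20 weeks and higher at 40.

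The non-fibrillar collagens went in both directions at 40 weeks. Col14a1, a collagen that lies on the surface of collagen fibrils, was higher. It read 20.5, 17.1, 37.004, 19.9 and 17.7 in Sham. In MR it read 48.04, 29.9, 25.03, 34.1 and 33.4, with Sham replicate 3 inside the MR range (log2 fold change 0.61, SE 0.21, adjusted p = 0.0266). Its call was lost when any 1 of 6 libraries was left out, namely Sham replicates 2, 4 or 5 or MR replicates 1, 4 or 5 (highest adjusted p 0.0718). Col16a1, another fibril-associated collagen, was lower. Its values were 9.22, 8.16, 15.9, 7.67 and 6.44 in Sham and 6.78, 4.59, 3.20, 4.53 and 4.74 in MR, overlapping through MR replicate 1 and Sham replicate 5 (log2 fold change -0.83, SE 0.21, adjusted p = 0.00594). Col6a2, a chain of the beaded filament collagen, was lower on the deposited scale (log2 fold change -0.37, SE 0.14, adjusted p = 0.0386) and was not called with the median-ratio scale (log2 fold change -0.21, adjusted p = 0.220). Its values were 114, 142, 169.8, 159.6 and 126 in Sham and 121, 101, 116, 99.02 and 109 in MR. Col8a1, a short-chain collagen of vessel walls, read 2.32, 1.53, 6.99, 1.44 and 2.36 in Sham and 8.81, 3.68, 2.38, 4.85 and 8.10 in MR (log2 fold change 0.78, SE 0.34, adjusted p = 0.0681). Without Sham replicate 3 it was called, with a log2 fold change of 1.08 and an adjusted p of 0.00679.

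Of the lysyl oxidase relatives, which start the cross-linking of collagen and elastin, Loxl3 was called. It read 5.08, 4.19, 4.95, 4.84 and 4.86 in Sham. In MR it read 3.13, 3.06, 3.08, 2.17 and 3.12, with no overlap (log2 fold change -0.57, SE 0.13, adjusted p = 0.00269). Loxl3 overlaps Htra2 on the other strand, and since no strand setting is given, reads of the pair cannot be told apart. Loxl1 read 19.2, 18.7, 46.2, 27.8 and 22.2 in Sham and 42.7, 17.4, 18.1, 21.3 and 20.4 in MR, overlapping groups with no call (log2 fold change -0.16, SE 0.26, adjusted p = 0.644). Loxl2 gave a log2 fold change of 0.40 and was not called. Without Sham replicate 3 it was (log2 fold change 0.58, adjusted p = 0.0344).

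Among the 7 genes for collagen hydroxylation and folding, P4ha1 was higher and Plod1 lower. P4ha1 encodes the catalytic subunit of prolyl 4-hydroxylase, the enzyme whose product stabilises the collagen triple helix. Its values were 6.02, 8.34, 6.94, 7.08 and 11.4 in Sham. In MR they were 14.002, 13.01, 10.997, 12.8 and 13.9, with Sham replicate 5 just inside the MR range (log2 fold change 0.66, SE 0.15, adjusted p = 0.00307). This call held in all 21 alternatives. Plod1, a lysyl hydroxylase, read 31.1, 38.1, 35.1, 35.2 and 37.003 in Sham and 31.5, 25.2, 27.9, 25.2 and 28.7 in MR (log2 fold change -0.34, SE 0.11, adjusted p = 0.0227), and with the median-ratio scale it was not called (log2 fold change -0.19, adjusted p = 0.189). Serpinh1 encodes HSP47, the collagen chaperone. It read 122, 143, 181, 196 and 177 in Sham and 148, 127, 124, 109 and 121 in MR and was not called (log2 fold change -0.36, SE 0.15, adjusted p = 0.0598), although it was when Sham replicate 1 or MR replicate 1 was left out (adjusted p = 0.0185 and 0.048). Plod2 gave -0.23, Plod3 -0.23, P4ha2 -0.19 and P4hb 0.04, none called.

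Both genes for the removal of the procollagen C-propeptide were lower. Bmp1 (rn6 chr15:52166401-52210747, minus strand) encodes the proteinase that makes the cut. It read 38.4, 55.01, 49.97, 31.3 and 35.3 in Sham. The MR libraries gave 24.97, 18.4, 25.7, 18.4 and 16.8, below the Sham range in every library (log2 fold change -0.97, SE 0.17, adjusted p = 0.000726). Phyhip overlaps Bmp1 on the other strand, and their reads cannot be told apart here. Pcolce encodes the protein that enhances this proteinase. Its values were 18.1, 19.3, 30.7, 27.3 and 16.6 in Sham and 18.3, 13.1, 14.5, 11.6 and 11.7 in MR, overlapping through MR replicate 1 (log2 fold change -0.64, SE 0.18, adjusted p = 0.0102). The Pcolce call was lost in the fit of all libraries together (adjusted p = 0.066), and the Mfap5 call there too (adjusted p = 0.0708). The calls of Sparc, Mgp, Bmp1, Efemp2, Ogn, P4ha1 and Col16a1 held in all 21 alternatives, and those of Mfap2 and Loxl3 in the 20 that tested them. Leaving out 1 library also ended the calls of Plod1 (Sham replicate 2, or MR replicate 2 or 4), Ltbp3 (Sham replicate 3 or 4, or MR replicate 2 or 4), Col6a2 (Sham replicate 2, 3 or 4, or MR replicate 2, 4 or 5) and Fbln5 (Sham replicates 1 to 4, or MR replicates 2 to 5), and without MR replicate 3 Fbn1 and Col8a1 were called (adjusted p = 0.0412 and 0.0221).

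Gene span moved with the 40-week fold changes. Across the 9637 tested genes with a RefSeq span (start to end, introns included), longer genes had the higher fold changes (Spearman's rho 0.35), and across the 41 members rho was 0.43. These are descriptions across genes, which share their libraries. The 14 lower members had a median span of 22.1 kb and the 4 higher ones 67.1 kb, beside 23.3 kb for the tested genes. Of the higher ones, Ogn (20.7 kb) and Prelp (23.1 kb) lay below the median of the tested genes. P4ha1 (111 kb) and Col14a1 (215 kb) lay above it. In the 2410 genes with the shortest spans (under 10.0 kb) the median log2 fold change of all genes was -0.38 and that of the 8 members there -0.50. In the 2409 genes with the longest spans (from 54.2 kb) the medians were 0.10 for all genes and -0.04 for 13 members. The part of gene span in the members' calls was not tested. In the 2-week comparison with Sham rho was 0.18 for all genes and 0.40 for members. The 10-week values were -0.10 for all genes and 0.10 for members, and those of 20 weeks -0.04 for all genes and 0.02 for members. Between 20 and 40 weeks of MR it was 0.39 for all genes and 0.41 for members.

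The sequence just before the start of transcription was compared between lower, higher and uncalled members. Of the 41 members, 29 had an upstream sequence in RefSeq (build GRCr8). Within 250 bases, the letters GGGCGG (the core of a GC box, either strand) were found in 7 of 10 lower members, neither of the 2 higher members and 11 of 17 members with no call, beside 60.3% of 7947 tested genes. CCAAT on either strand was found in 8 of 29 members, beside 35.7% of tested genes. TATAAA on the gene's strand was found in 1 of 29 (Ogn), beside 4.14%, and TGACTCA on either strand in none, beside 3.05%. ACGTG, the core of the hypoxia response element, either strand, was in 4 of 29 members (Aspn, Ltbp1, P4ha2 and Plod2), beside 23.2%. The 150 bases before the start are shown for 3 lower members with a GC box, for Sparc, which fell without any of these letters, and for P4ha1, which rose; capitals mark GGGCGG or its reverse complement.
Efemp2 (chr1:212211572-212211721, plus strand): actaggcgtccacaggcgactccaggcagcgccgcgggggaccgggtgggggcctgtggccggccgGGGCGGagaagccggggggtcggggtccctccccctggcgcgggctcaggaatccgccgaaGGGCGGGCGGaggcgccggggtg
Mfap2 (chr5:158597578-158597727, plus strand): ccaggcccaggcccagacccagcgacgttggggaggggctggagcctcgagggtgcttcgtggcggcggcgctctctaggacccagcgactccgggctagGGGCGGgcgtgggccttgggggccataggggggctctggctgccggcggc
Col16a1 (chr5:147672946-147673095, plus strand): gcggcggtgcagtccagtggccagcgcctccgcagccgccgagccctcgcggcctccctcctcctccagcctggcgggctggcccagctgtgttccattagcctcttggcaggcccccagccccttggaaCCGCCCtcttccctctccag
Sparc (chr10:40038817-40038966, minus strand): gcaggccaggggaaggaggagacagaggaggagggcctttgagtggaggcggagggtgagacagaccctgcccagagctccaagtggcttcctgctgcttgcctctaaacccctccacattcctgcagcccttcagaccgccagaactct
P4ha1 (chr20:27844896-27845045, plus strand): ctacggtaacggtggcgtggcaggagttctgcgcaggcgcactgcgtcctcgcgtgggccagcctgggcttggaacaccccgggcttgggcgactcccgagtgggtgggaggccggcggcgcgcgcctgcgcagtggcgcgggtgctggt
In Efemp2 the letters begin 84, 23 and 19 bases before the start, and the last pair of matches share bases. In Mfap2 they begin 50 bases before it, and in Col16a1 20 bases before it, on the reverse strand. The Sparc stretch has 62.0% G and C and that of P4ha1 74.0%, and neither holds the letters searched.

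Cell type markers were read beside these calls, since in bulk tissue fewer cells of a type and less RNA per cell cannot be told apart. All 12 fibroblast markers were listed. Their summed value was 1210 to 1543 in Sham and 1292 to 1733 in MR at 40 weeks, overlapping ranges, and 2 were higher and 3 lower at 40 weeks. The 10 smooth muscle and pericyte markers summed to 288 to 689.9 in Sham and 336 to 510 in MR at 40 weeks, with 3 higher and 3 lower. The 10 endothelial markers summed to 882 to 1198 and 758 to 1009, with 1 higher and 5 lower. Of 7 adipocyte markers 3 were listed, and their sum was 298 to 496 in Sham and 144 to 252 in MR at 40 weeks, with no overlap. That sum is mostly Fabp4, with a mean of 352 in Sham and 180 in MR at 40 weeks. The ranges overlapped for Cfd (3.39 to 7.76 and 2.29 to 4.47) and for Pparg (4.63 to 10.7 and 4.21 to 7.24). The fibroblast sum is mostly Gsn, so the median over the 12 is given too: its log2 fold change was 0.08 at 40 weeks, with 7 of 12 above 0. At 2 weeks the sum was 655 to 1219 in MR, where Gsn had a mean of 602 beside 1082 in Sham, and the median of the 12 was 0.12, with 8 above 0. Of 10 macrophage markers 9 were listed, summing to 69.9 to 138 in Sham and 43.7 to 110.1 in MR at 40 weeks, with 3 lower. Whether these markers have a part in the members' calls was not tested. Every listed marker had at least 1 read in every library. At 20 weeks, where no marker was called, the endothelial markers had a median log2 fold change of -0.28 with 0 of 10 above 0. That of the 12 fibroblast markers was 0.02, with 6 above 0. From 2 to 40 weeks of MR, where 24.3% of genes were higher and 21.3% lower, 6 of 9 macrophage markers were lower (median -0.85). Of 7 mesothelial markers 3 were tested, and all 3 were lower (median -1.42). Among these, Msln (0.68 to 18.2) and Krt8 (0.80 to 12.2) were spread widely over the MR libraries of 2 weeks. Of 10 endothelial markers 5 were lower and 1 higher (median -0.35). Of 12 fibroblast markers 2 were lower and 2 higher (median -0.05), and of 10 smooth muscle and pericyte markers 2 and 3 (median -0.43).

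At 2 weeks no member was called, beside 0% of 10173 tested genes. In limma 4 members (9.76%) had an unadjusted p under 0.05, beside 5.47% of all genes, and edgeR and DESeq2 called 0 members. Plod2, a lysyl hydroxylase of collagen ends, gave 0.70 and Vcan 0.67 on the log2 scale, while Efemp1 (fibulin-3) gave -0.69 and Sparcl1 -0.37, with adjusted p between 0.648 and 0.84. Plod2 read 9.26, 10.5, 16.1, 8.59 and 8.28 in Sham and 13.1, 22.9, 14.6 and 19.99 in MR, and Sham replicate 3 lay among the MR libraries. The members' median was 0.12, beside -0.07 for all genes, and 27 of 41 lay above 0, beside 3848 of the 10173 genes.

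At 10 weeks no member was called either, beside 0.168% of 10096 genes. In limma 3 members (7.32%) had an unadjusted p under 0.05, beside 12.005% of all genes, and edgeR and DESeq2 called 0. P4ha2, another catalytic subunit of prolyl 4-hydroxylase, read 27.4, 22.6, 15.2, 16.1 and 18.3 in Sham and 30.1, 27.02, 31.1, 27.3 and 28.2 in MR (log2 fold change 0.54, SE 0.15, adjusted p = 0.196). Its groups overlapped. The other 2 were Plod2 (0.44) and Bmp1 (0.35). The members' median was 0.03, beside 0.06 for all genes.

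At 20 weeks limma called no member, beside 0.0698% of 10025 genes, all of them higher. There 13 members (31.7%) had an unadjusted p under 0.05, beside 9.49% of all genes, and 34 of 41 had a log2 fold change below 0. The members' median was -0.25, beside -0.003 for all genes and -0.68 for 6 fibrillar collagens. Marker medians were 0.02 for 12 fibroblast, -0.12 for 10 smooth muscle and pericyte, -0.16 for 9 macrophage and -0.28 for 10 endothelial markers. The part of those in the members' values was not tested. On the deposited scale, every MR library lay below every Sham library in 4 members (9.76%, beside 1.3% of all genes). Elastin was the largest of these: it read 46.7, 80.4, 158, 59.2 and 56.7 in Sham and 35.1, 41.5, 35.9, 22.6 and 35.4 in MR (log2 fold change -1.09, SE 0.27, adjusted p = 0.206). Fbn1 read 20.8, 20.7, 33.7, 19.1 and 28.04 in Sham and 13.4, 18.8, 16.1, 16.97 and 17.2 in MR (log2 fold change -0.52, SE 0.16, adjusted p = 0.302). Sparc read 1072, 1349, 1557, 1214 and 1147 in Sham and 882, 897, 926, 967 and 635 in MR (log2 fold change -0.56, SE 0.15, adjusted p = 0.263). Ltbp4 gave -0.15. edgeR called 0 members and DESeq2 called 2, Eln (log2 fold change -1.25, adjusted p = 0.00967) and Sparc (log2 fold change -0.56, adjusted p = 0.0328).

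The MR groups were also compared with each other, on the median-ratio scale and in 1 fit of all 24 libraries over 9988 genes. From 2 to 10 weeks 1 member was called, lower (2.44%, beside 1.08% of genes lower and 1.38% in all). It was Loxl2, a lysyl oxidase relative. It read 2.86, 8.15, 6.27 and 7.62 at 2 weeks and 1.32, 1.998, 1.69, 3.20 and 3.02 at 10 weeks, with MR replicate 1 of 2 weeks inside the 10-week range (log2 fold change -1.12, SE 0.27, adjusted p = 0.0359). This call was lost in 7 of 17 alternatives: the fit of only the libraries compared, and without replicate 2, 3 or 4 of 2 weeks or replicate 1, 2 or 3 of 10 weeks. With libraries weighted by their quality 15 members were called and 1187 genes in all, in place of 138. Without MR replicate 1 of 2 weeks 306 genes were called and 5 members: Loxl2, Eln, Fbn1, Loxl1 and Serpinh1. From 10 to 20 weeks limma called no member, beside 0.01% of genes, with 7 members (17.1%) at an unadjusted p under 0.05, beside 15.2% of all genes, and 0 called by edgeR or DESeq2.

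From 20 to 40 weeks 17 members were called, 41.5% of the members beside 38.8% of genes. Of these 11 were higher (26.8%, beside 21.2%) and 6 lower (14.6%, beside 17.6%). The 2 groups did not overlap in 5 members that were higher (12.2%, beside 13.2% of genes) and 1 that was lower (2.44%, beside 9.75%). Several of the higher members had not been called against Sham at 40 weeks. Col8a1 read 0.810, 0.816, 0.578, 1.61 and 3.03 at 20 weeks and 9.60, 4.19, 2.56, 5.42 and 9.92 at 40 weeks (log2 fold change 1.59, SE 0.41, adjusted p = 0.00390), with MR replicate 5 of 20 weeks inside the 40-week range. Loxl2 read 1.29, 1.25, 2.89, 1.33 and 2.003 and then 8.11, 5.28, 4.11, 5.59 and 5.90, with no overlap (log2 fold change 1.31, SE 0.26, adjusted p = 0.000380). Fbn1 read 13.7, 17.7, 16.3, 17.3 and 18.3 and then 57.6, 25.9, 24.3, 42.2 and 49.2, again with no overlap (log2 fold change 1.14, SE 0.35, adjusted p = 0.0130). These 3, a vessel-wall collagen, a cross-linking enzyme and the microfibril protein, were among 7 members called in all 18 alternatives. Over those, the log2 fold change ran from 0.80 to 2.21 in Col8a1, 0.67 to 1.73 in Loxl2 and 0.99 to 1.29 in Fbn1.

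The proteoglycans Prelp and Ogn were also higher at 40 than at 20 weeks. Prelp read 6.10, 7.92, 7.78, 7.03 and 14.7 at 20 weeks, where replicate 5 stood apart, and 21.1, 21.01, 13.4, 16.9 and 20.1 at 40 weeks (log2 fold change 1.05, SE 0.25, adjusted p = 0.00219). Ogn read 43.2, 52.5, 60.9, 49.1 and 58.4 and then 74.1, 84.5, 59.2, 106 and 86.4, with MR replicate 3 of 40 weeks inside the 20-week range (log2 fold change 0.61, SE 0.24, adjusted p = 0.0449). Col14a1 read 14.9, 26.4, 17.2, 16.1 and 26.2 and then 52.4, 34.02, 26.9, 38.04 and 40.8, with no overlap (log2 fold change 0.91, SE 0.27, adjusted p = 0.0101). P4ha1 read 11.2, 5.42, 7.94, 5.94 and 17.7 and then 15.3, 14.8, 11.8, 14.2 and 16.98; replicate 5 of 20 weeks was the highest of all 10 (log2 fold change 0.66, SE 0.23, adjusted p = 0.0239). The P4ha1 call was lost in 4 of 18 alternatives (edgeR, and without replicate 2 or 4 of 20 weeks or replicate 5 of 40 weeks; highest adjusted p 0.0889), and that of Ogn without replicate 1, 2 or 4 of 20 weeks or replicate 1, 2, 4 or 5 of 40 weeks (highest adjusted p 0.12). Emilin1, an elastic fibre glycoprotein, read 23.8, 25.5, 24.6, 26.5 and 25.2 and then 38.6, 37.6, 35.5, 26.6 and 44.2, with no overlap (log2 fold change 0.50, SE 0.18, adjusted p = 0.0320), a call lost without replicate 1, 2 or 3 of 20 weeks or replicate 1, 2 or 5 of 40 weeks (highest adjusted p 0.0904). Ltbp4 read 255, 222, 212, 231 and 251 and then 357, 273, 283, 266 and 330.0, also apart (log2 fold change 0.36, SE 0.11, adjusted p = 0.0160), a call lost without replicate 1 of 40 weeks (adjusted p = 0.054). Ltbp1 read 17.6, 13.1, 26.7, 14.8 and 16.5 and then 24.7, 23.1, 27.1, 22.02 and 25.9, overlapping through replicate 3 of 20 weeks (log2 fold change 0.49, SE 0.15, adjusted p = 0.0143), and this call was lost without replicate 2 of 20 weeks (adjusted p = 0.055). P4hb, the partner subunit of prolyl 4-hydroxylase, had a log2 fold change of 0.37, a call lost with edgeR and without replicates 1 to 4 of 20 weeks or any replicate of 40 weeks.

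The 6 members lower at 40 than at 20 weeks were Mgp, Efemp2, Mfap2, Bmp1, Sparc and P4ha2. Mgp read 205, 265, 144, 141 and 187 and then 135, 72.2, 117, 81.9 and 75.6, with no overlap (log2 fold change -0.97, SE 0.24, adjusted p = 0.00280). Efemp2 read 10.4, 12.8, 9.04, 8.74 and 6.16 and then 6.53, 4.74, 6.67, 4.65 and 4.53 (log2 fold change -0.68, SE 0.20, adjusted p = 0.00966), and Mfap2 read 2.29, 4.90, 3.68, 3.18 and 2.88 and then 2.30, 1.52, 1.94, 1.79 and 1.68 (log2 fold change -0.60, SE 0.19, adjusted p = 0.0154). In both genes the groups overlapped, and the Mfap2 call was lost without replicate 2 of 20 weeks (adjusted p = 0.0579). Bmp1 read 57.8, 36.7, 31.3, 32.1 and 23.2 and then 27.2, 20.96, 27.7, 20.5 and 20.5 (log2 fold change -0.56, SE 0.19, adjusted p = 0.0259), a call lost without replicate 1 or 2 of 20 weeks or replicate 2, 4 or 5 of 40 weeks (highest adjusted p 0.109). Sparc read 903, 841, 935, 985 and 675 and then 784, 545, 651, 563 and 754 (log2 fold change -0.40, SE 0.16, adjusted p = 0.0486), a call lost with every library at the same summed value and without replicates 1 to 4 of 20 weeks or 2 to 4 of 40 weeks. P4ha2 had a log2 fold change of -0.40, a call lost in 8 of 18 alternatives, among them without replicate 1, 4 or 5 of 20 weeks or any of replicates 2 to 5 of 40 weeks. Without MR replicate 2 of 20 weeks 9 members were called in this comparison in place of 17, and 3159 genes in place of 3874. The higher count, 11, was 6 without replicate 2 of 20 weeks and 7 without replicate 1 or 5 of 40 weeks, and the lower count, 6, was 3 without replicate 1 or 2 of 20 weeks or replicate 2 or 4 of 40 weeks.

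Between 2 and 40 weeks of MR, 17 members were called (41.5%, beside 45.6% of genes), 3 higher (7.32%, beside 24.3%) and 14 lower (34.1%, beside 21.3%). Without MR replicate 2 of 2 weeks 8 were higher and 11 lower, and without MR replicate 1 of 2 weeks 1 was higher and 14 lower. This comparison shares its 40-week libraries with those above. Ogn was higher, with 20.9, 59.6, 21.1 and 42.3 at 2 weeks (log2 fold change 1.28, SE 0.25, adjusted p = 0.000376), as was Prelp, with 3.98, 13.99, 11.03 and 14.5 (log2 fold change 0.83, SE 0.27, adjusted p = 0.0148). Efemp1 read 3.69, 9.47, 7.37 and 6.87 at 2 weeks and 9.51, 9.47, 9.32, 12.6 and 14.5 at 40 weeks (log2 fold change 0.66, SE 0.21, adjusted p = 0.0146). The Prelp and Efemp1 calls were lost without MR replicate 1 of 2 weeks, the lowest library for both.

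Among the 14 lower members, Sparc read 1307, 1602, 1439.7 and 1733 at 2 weeks (log2 fold change -1.21, SE 0.17, adjusted p = 2.0e-05) and Mgp 256, 247, 239 and 216 (log2 fold change -1.35, SE 0.25, adjusted p = 0.000249). Eln read 50.7, 165, 94.96 and 158 and then 65.6, 37.8, 39.2, 41.4 and 39.3 (log2 fold change -1.26, SE 0.35, adjusted p = 0.00574), overlapping through replicate 1 of both groups. The procollagen proteinase Bmp1 read 68.5, 47.5, 45.8 and 41.3 at 2 weeks (log2 fold change -1.07, SE 0.21, adjusted p = 0.000311) and Efemp2 16.2, 12.6, 10.5 and 10.3 (log2 fold change -1.05, SE 0.21, adjusted p = 0.000466). For Sparc, Mgp, Bmp1 and Efemp2 every library of 40 weeks lay below every library of 2 weeks. Plod2 read 13.2, 22.4, 15.3 and 19.7 and then 10.5, 8.66, 8.52, 8.82 and 9.87, with no overlap (log2 fold change -0.83, SE 0.20, adjusted p = 0.00186). Vcan read 17.3, 23.9, 19.02 and 23.8 and then 16.3, 6.64, 9.27, 12.04 and 14.6, also apart (log2 fold change -0.83, SE 0.28, adjusted p = 0.0188). Col16a1 read 10.2, 10.7, 10.9 and 10.2 and then 7.39, 5.23, 3.44, 5.06 and 5.80, likewise (log2 fold change -0.88, SE 0.21, adjusted p = 0.00199). The other lower members were Mfap5 (-0.96), Mfap2 (-0.67), Pcolce (-0.65), Loxl3 (-0.47), Fbln5 (-0.45) and Plod1 (-0.37), the last again with no overlap. In all, 8 members were lower with no overlap (19.5%, beside 14.2% of genes) and 1 higher (2.44%, beside 17.9%). Leaving out 1 library ended the calls of Loxl3 (replicate 1 of 2 weeks), Mfap2 and Pcolce (replicate 2 of 2 weeks), Mfap5 (replicate 4 of 2 weeks) and Vcan (replicate 2 of 40 weeks), with adjusted p between 0.0519 and 0.0686, and Fbln5 was lost in 7 of 17 alternatives.

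Ratios between related members within a library, taken as differences of log2(value + 1), depend little on the scale of the library. For 6 pairs at 4 times, 24 ratios were compared with Sham by a two-sided exact permutation test, whose smallest p is 0.00794. The log2 ratio of Sparc to Sparcl1 was 2.54 ± 0.16 (SD, n = 5) in Sham and 1.52 ± 0.08 (SD, n = 5) in MR at 40 weeks. The groups did not overlap (difference -1.01, exact p = 0.00794, 0.19 after Benjamini-Hochberg adjustment over the 24). At 2 weeks it was 3.08 ± 0.35 (SD, n = 4), a difference of 0.55 from Sham (exact p = 0.0159, adjusted 0.19). The log2 ratio of Loxl2 to Loxl1 at 40 weeks was -1.97 ± 0.25 (SD, n = 5), beside -2.53 ± 0.41 (SD, n = 5) in Sham (exact p = 0.0317, adjusted 0.254). That of Plod2 to Plod1 at 2 weeks was -1.18 ± 0.30 (SD, n = 4), beside -1.76 ± 0.38 (SD, n = 5) in Sham (exact p = 0.0476, adjusted 0.286). None of the 24 passed 0.05 after adjustment. A ratio at the smallest p could not do so on its own among 24, so the adjustment cannot decide on a single ratio. For Bgn to Dcn, Fmod to Lum and Ltbp2 to Ltbp4 the unadjusted p was 0.135 or more at every time.

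**Figure D4:**
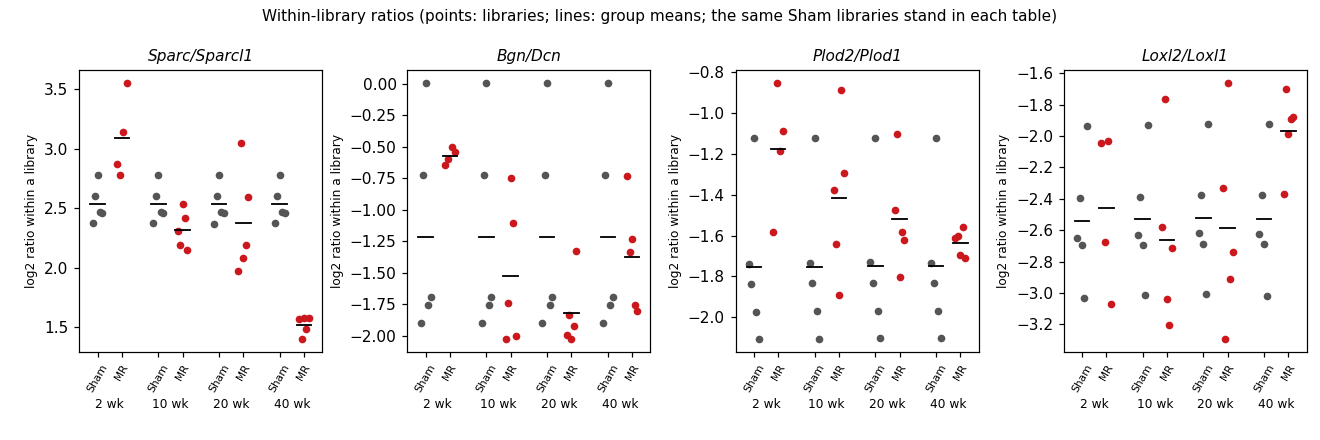
Points give the log2 ratio of 2 members within each library for Sham (grey) and MR (red) at 2, 10, 20 and 40 weeks, with a line at the group mean. The same 5 Sham libraries stand at every time. The Sparc to Sparcl1 ratio of the 5 MR libraries at 40 weeks lies between 1.40 and 1.58, below all Sham libraries (2.37 to 2.78).

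Other genes of the same pathways were counted from lists that hold no member. Against Sham at 40 weeks, 16.3% of all tested genes were higher and 30.9% lower. Of 8 fibrillar collagen genes, the chains of the main fibres, 6 were tested there and 5 were lower, with a median log2 fold change of -0.80. Sham replicate 3 lay above the Sham mean for these genes, by a median of 0.997. Fold changes without that library are not given here for them. Col3a1 had 230.4 ± 71.7 (SD, n = 5) in MR against 578 ± 327 (SD, n = 5) in Sham (log2 fold change -1.23, SE 0.28, adjusted p = 0.00310), Col1a1 had a log2 fold change of -0.95 and Col1a2 of -0.81. Of 17 other collagen-processing genes 13 were tested, with 1 higher (Tmem38b, 0.49) and 4 lower. The largest falls there were Ppib (-1.16), the prolyl isomerase cyclophilin B, and P3h3 (-1.01), a prolyl 3-hydroxylase relative. Of 9 other elastic fibre genes 3 were tested and all were called: Mfap3l (1.54) and Mfap3 (0.50) higher and Adamts10 (-1.45) lower. Of 21 other proteoglycan cores 10 were tested, 1 was higher and 2 lower. The higher one was glypican-1 (Gpc1, 1.14), a heparan sulfate proteoglycan of the cell membrane, and agrin (Agrn, -0.70) and Cspg4 (-0.38) were lower. Of 23 enzymes of glycosaminoglycan synthesis 19 were tested, with Ust (0.77) and Ndst1 (0.72) higher and Chpf2 (-0.38) lower. At 2, 10 and 20 weeks against Sham no gene of these lists was called. From 20 to 40 weeks of MR, where 21.2% of genes were higher and 17.6% lower, 1 of 6 fibrillar collagens was higher (Col5a1, 0.68). Of 18 glycosaminoglycan enzymes 5 were higher, and of 10 proteoglycan cores 3, with none lower in either list. Of 13 other collagen-processing genes 3 were higher and 3 lower, and of 2 other elastic fibre genes 1 and 1.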

How the data were processed

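RNA was measured by sequencing in 24 myocardium libraries. The authors deposited 4 tables, 1 per MR time, each with the same Sham libraries. Their values are a signal: read counts per gene divided by 1 factor per library, since 97.3% to 97.7% of the deposited values are whole multiples of 1 read, within 0.1 read. Partek and rn6 are named in the submitters' processing notes. The aligner, annotation, strand setting and scaling were not given in the sources used here. No listed value corresponds to fewer than 1 read.

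Each table was tested with limma 3.58.1 (R 4.3.3; trended empirical Bayes) on log2(value + 1), for genes with a mean of at least 1, with Benjamini-Hochberg adjustment over all tested genes. This was chosen because the values are not counts. edgeR 4.0.16 and DESeq2 1.42.0 on the recovered reads were alternatives. MR times were compared in 1 limma fit of all libraries, joined by median-ratio scaling. Other alternatives were pseudocounts of 0.1 and 5, other filters and scalings, library weights, and leaving out each library. A replicate block was also tried at 2 weeks. The code was tested on simulated data.

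The members and lists were chosen with earlier results of these data known. All members were accounted for. Values by library are given for called members, by size of change within a role, up to 4 per role and comparison, with 1 uncalled member per role. From each pathway list up to 3 called genes with the largest change were named. Further genes and alternatives named in the text were chosen after their values were seen. Upstream sequences and gene spans came from RefSeq, build GRCr8.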

Additional observations from a re-analysis of the deposited data

Results flagged for a closer look

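Within groups of 4 or 5 libraries, a library was singled out where its gap to the nearest other library, as a share of the group's range, passed Dixon's 95% critical value. Among 205 groups of member values this gave 11, and chance alone gives about 10.25. All values are normalised read counts on the joined scale. MR replicate 1 at 40 weeks stood high in 4 genes: Eln at 65.6 (others 37.8 to 41.4), Mfap4 at 91.3 (48.6 to 53.3), Ltbp2 at 15.3 (2.87 to 4.41) and Loxl1 at 46.5 (19.5 to 25.02). Sham replicate 3 stood high in Col8a1 at 7.48 (others 1.34 to 2.36) and Col14a1 at 39.6 (17.4 to 19.3). At 20 weeks Prelp was 14.7 in MR replicate 5 (others 6.10 to 7.92), and Eln was 23.0 in MR replicate 4 (36.0 to 38.9). The low libraries were MR replicate 1 at 2 weeks for Fbln5 at 17.8 (others 22.8 to 23.9), MR replicate 4 at 10 weeks for Loxl3 at 3.30 (4.68 to 5.32), and Sham replicate 2 for P4hb at 103 (135 to 150.1).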

How the results depend on the processing

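At 2 and 10 weeks against Sham, 0 members were called under every alternative run. At 20 weeks DESeq2 called 2 and every other alternative 0. At 40 weeks the alternatives called 12 to 19 members, and leaving out 1 library 13 to 19. For 10 against 2 weeks of MR, library weights called 15, the fit of only the libraries compared called 0, DESeq2 called 4, and leaving out 1 library gave 0 to 5. For 20 against 10 weeks, library weights called 2 (Bmp1 and Ltbp4) and leaving out 1 library 0. For 40 against 20 weeks, leaving out 1 library gave 9 to 19, with 9 without MR replicate 2 of 20 weeks and 11 without MR replicate 5 of 40 weeks. For 40 against 2 weeks it gave 15 to 19. The causes were not tested. Over single members, 131 recomputed results lost a call and 81 gained one. No called member changed sign, while uncalled ones did so in 295 of their recomputed results. At 2 weeks, Sham and MR share title numbers; the fit with the replicate block called 0 members, as did the same 8 libraries without it, a fit added after seeing the data. Deviations of same-numbered libraries correlated at 0.0183, -0.285, -0.00387 and 0.241, and no library correlated best with its own number, so the numbers were not taken as pairs. Depth limits Fmod, Col8a1, Mfap2 and Loxl2 most, with a mean of 55.3, 70.2, 73 and 82.9 reads per library.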
